A study of Arabidopsis thaliana with 7 samples.

Results

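The 9 genes described here encode the core machinery that makes microRNAs and trans-acting small interfering RNAs (tasiRNAs) in Arabidopsis. They are DCL1, DCL2 and DCL4 (Dicer-like ribonucleases), HYL1 and SE (partners of DCL1), HEN1 (a methyltransferase), HST (an exportin), RDR6 (an RNA-dependent RNA polymerase) and SGS3 (its partner). They were chosen by name from pathway knowledge, with earlier results of these data known. They are 9 of the 33602 genes in the deposited table, and all 9 were found there. RNA was sequenced in 3 replicates from whole wild-type seedlings of Arabidopsis thaliana accession Col-0, the common laboratory strain. The plants were 14 days old and had been kept on MS plates at 22 °C under long days (16 h light, 8 h dark). The libraries shared 1 genotype and 1 treatment, so there was no contrast between conditions, and the 4 chromatin libraries were not used. Nothing in the labels says that the replicates were grown separately, so the tests below concern only how far these libraries differ, a spread that may be technical.

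In plants a microRNA begins as a folded stretch of a longer transcript. DCL1 cuts it out in the nucleus with the help of the RNA-binding protein HYL1 and the zinc-finger protein SE, HEN1 then methylates the ends of the duplex and so shields it from tailing and decay, and HST takes part in microRNA export and biogenesis. A tasiRNA begins when a microRNA guides the cleavage of a TAS transcript. SGS3 stabilises the cleaved fragment, RDR6 copies it into a duplex, and DCL4 dices that duplex in register, with DCL2 able to act on similar substrates when DCL4 is missing and in antiviral silencing. The mature small RNAs themselves were not measured by these libraries, which report the transcripts of the genes.

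The libraries held 30946664, 18493022 and 20764970 counts in replicates 1, 2 and 3. The tissue label was checked on 10 marker genes. Leaf and root markers were present, from RBCS1A at 10326 ± 475 CPM (counts scaled by TMM-adjusted library totals, SD, n = 3) to the root phosphate transporter gene PHT1;1 at 42.6 ± 0.860 CPM, whereas the flower, pollen and seed markers had at most 4 counts in any library, with ANX2 and LEC1 at 0. Ribosomal RNA (4 genes) made up 1.201%, 1.39% and 2.97% of replicates 1, 2 and 3. In whole seedlings, fewer cells that use a gene and less RNA per cell cannot be told apart.

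All 9 genes were expressed, a call that needed a mean of at least 1 CPM and that 56.8% of nuclear genes and 69.2% of nuclear protein-coding genes met. In each of the 27 gene-by-library values the level lay between 10 and 100 CPM, and together the 9 genes took 311, 325 and 325 CPM in replicates 1, 2 and 3. CPM grows with transcript length, and transcript lengths for the build used were not at hand. The levels of different genes are therefore given side by side without an order, and comparisons are made within a gene or between ratios of the same genes across libraries.

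DCL1 (AT1G01040, chromosome 1), the Dicer of the microRNA pathway, had 60.9, 58.8 and 57.6 CPM in replicates 1, 2 and 3, from 1884, 1100 and 1183 counts. The 3 values averaged 59.1 ± 1.66 CPM (SD, n = 3), and their counting intervals (exact Poisson, 95%) overlapped. Its coefficient of variation (CV) of 2.81% was the lowest of the 9 genes and stood at percentile 21.3 among the 1510 nuclear genes within 1.2-fold of its mean level, whose median CV was 4.82%. In the RefSeq gene table (assembly TAIR10.1) the microRNA gene MIR838 lies inside DCL1 and had 10, 8 and 4 counts in the 3 libraries. The neighbouring gene PPa1 overlaps DCL1 in that table and stood at 47.9 ± 2.68 CPM. The lncRNA gene AT1G03993 also lies inside DCL1 there but has no row in the deposited counts.

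HYL1 (AT1G09700, chromosome 1), the RNA-binding partner of DCL1, had 12.6, 12.5 and 11.2 CPM in replicates 1, 2 and 3, from 390, 234 and 229 counts. Replicate 3 was the lowest, and all 3 counting intervals overlapped (mean 12.1 ± 0.811 CPM, SD, n = 3). HYL1 had the fewest counts of the set, so its counting error was the widest in relative terms. In the RefSeq table it overlaps AT1G09690, which stood at 207 ± 19.7 CPM. The sources used here do not say how reads in the overlap, or on the other strand, were treated, so the HYL1 count is uncertain to that extent. The same holds for DCL1 and DCL2, which also overlap other genes.

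SE (AT2G27100, chromosome 2) encodes a zinc-finger protein that acts in microRNA processing and also in splicing. It had 71.5, 67.6 and 77.9 CPM in replicates 1, 2 and 3, from 2211, 1264 and 1599 counts, with a mean of 72.3 ± 5.21 CPM (SD, n = 3). The value of replicate 3 lay above that of replicate 2, with no overlap of counting intervals. These were 74.1 to 81.8 CPM in replicate 3 and 63.9 to 71.4 CPM in replicate 2, and replicate 1 overlapped both. The intervals take each count as 1 fragment and may be too narrow, since low deposited counts were mostly even. On halved counts SE did not pass the edgeR test against counting error described below (adjusted p = 0.165).

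HEN1 (AT4G20910, chromosome 4), which methylates microRNA and siRNA duplexes, had 15.8, 15.1 and 13.4 CPM in replicates 1, 2 and 3 (mean 14.8 ± 1.24 CPM, SD, n = 3). Replicate 3 was the lowest and the counting intervals overlapped. HST (AT3G05040, chromosome 3), the plant counterpart of the animal exportin that carries precursor microRNAs, had 23.0, 23.8 and 25.8 CPM (mean 24.2 ± 1.46 CPM, SD, n = 3), with replicate 3 the highest and overlapping intervals.

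RDR6 (AT3G49500, chromosome 3), the polymerase that makes TAS transcripts into duplexes, had 42.8, 46.6 and 46.3 CPM in replicates 1, 2 and 3 (mean 45.2 ± 2.11 CPM, SD, n = 3). SGS3 (AT5G23570, chromosome 5), which works with RDR6 in cytoplasmic granules, had 22.1, 23.4 and 22.7 CPM (mean 22.7 ± 0.667 CPM, SD, n = 3). Both were lowest in replicate 1 and highest in replicate 2, and within each gene the counting intervals overlapped. The CV of SGS3, 2.93%, stood at percentile 13.1 among the 1901 genes near its level, the lowest percentile of the 9 genes.

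DCL4 (AT5G20320, chromosome 5), the Dicer of the tasiRNA pathway, had 32.7, 37.5 and 37.1 CPM in replicates 1, 2 and 3, from 1012, 702 and 761 counts (mean 35.8 ± 2.66 CPM, SD, n = 3). Replicate 1 was the low library. Its counting interval, 30.7 to 34.789 CPM, ended just under that of replicate 2, 34.797 to 40.4 CPM, and overlapped that of replicate 3. That gap is too small to count as a separation, since the intervals take each count as 1 fragment and may be too narrow. On halved counts DCL4 did not pass the edgeR test against counting error described below (adjusted p = 0.302).

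DCL2 (AT3G03300, chromosome 3), the Dicer known mainly from antiviral silencing and from substrates left by DCL4, varied most. It had 30.0, 39.9 and 32.9 CPM in replicates 1, 2 and 3, from 929, 747 and 675 counts (mean 34.3 ± 5.10 CPM, SD, n = 3). Replicate 2 stood above the others, with a counting interval of 37.1 to 42.9 CPM that did not overlap those of replicate 1 (28.1 to 32.02 CPM) and replicate 3 (30.4 to 35.5 CPM). Its CV of 14.9% was at percentile 98.9 among the 1951 genes within 1.2-fold of its level, whose median was 5.55%, and the highest library was 1.33-fold the lowest. In the other 8 genes that ratio ran from 1.06 to 1.18. The counting intervals of DCL2 also take each count as 1 fragment and may be too narrow. The gene AT3G03305, which overlaps DCL2 in the RefSeq table, stood at 20.7, 21.6 and 21.4 CPM in replicates 1, 2 and 3, with an SD of 0.475 CPM.

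**Figure D1:**
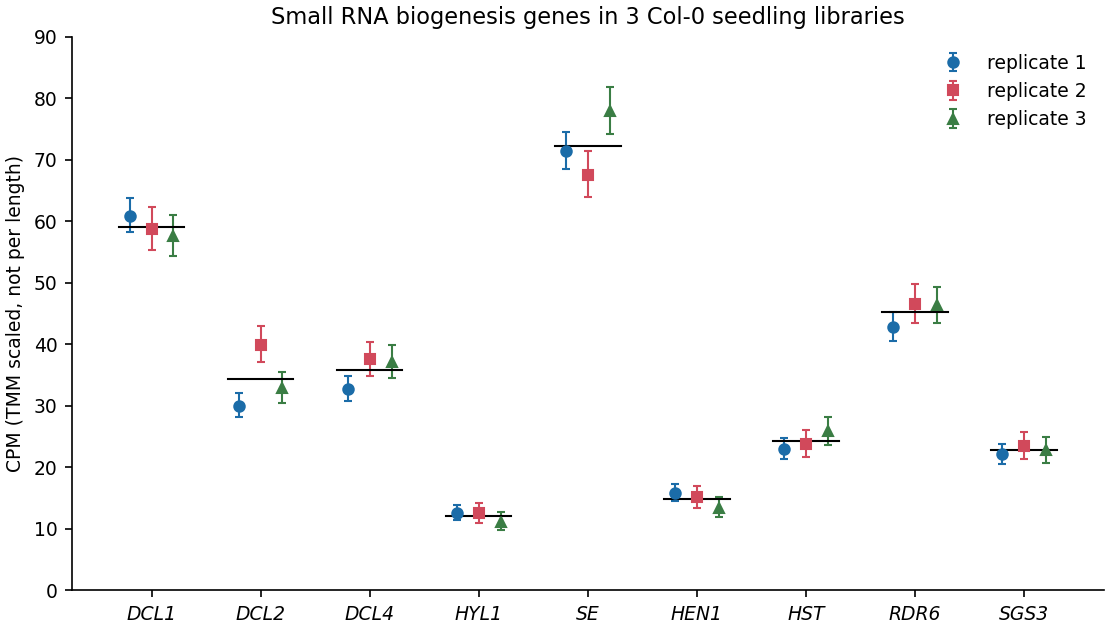
CPM of each of the 9 genes (vertical axis, TMM scaled, not corrected for length) in replicates 1, 2 and 3; bars are exact Poisson 95% intervals of the counts and black lines are means over the 3 libraries. DCL2 in replicate 2, at 39.9 CPM, stands clear of the other DCL2 values, while the DCL1 values lie between 57.6 and 60.9 CPM. The bars take each count as 1 fragment and may be too narrow.

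Whether these differences exceeded counting error was tested with edgeR's goodness-of-fit test at dispersion 0 over all 18915 nuclear genes of at least 1 CPM, with Benjamini-Hochberg adjustment. DCL2 (adjusted p = 1.80e-06), SE (adjusted p = 0.00409) and DCL4 (adjusted p = 0.0223) passed the threshold of 0.05 in this edgeR test. That is 3 of the 9 genes, against 32.8% of all genes tested and 31.2% of the 8814 tested genes within the CPM range of the 9, so the share is near the background. The other 6 had adjusted p from 0.157 (RDR6) to 0.718 (SGS3) in the edgeR test. The test takes each count as an independent fragment, and low counts in the table were mostly even, so it was repeated on halved counts. With all counts halved and rounded DCL2 still passed (adjusted p = 0.00700, edgeR) but SE (adjusted p = 0.165) and DCL4 (adjusted p = 0.302) did not. On halved counts 6.4% of all genes passed. Without replicate 2 the DCL2 call was lost (adjusted p = 0.198), without replicate 3 the SE call (adjusted p = 0.276), and without replicate 1 the DCL4 call (adjusted p = 0.945). In those repeats 20.4%, 16.7% and 15.7% of all genes passed. The replicate left out was each time the library furthest from that gene's own mean.

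Whether a gene varied more than genes of its own level was tested with the same edgeR procedure at the trended dispersion. None of the 9 genes passed (adjusted p from 0.952 for DCL2 to 1.00), and 28 of 18915 genes did, or 0.148%. Before adjustment, 4.61% of all genes and 1 of the 9, DCL2, were under 0.05 in this edgeR test, DCL2 with an unadjusted p of 0.0222. The trended biological CV at the level of DCL2 was 6.60%, and 2 of its 3 libraries departed from the gene's own mean by more than that on the log2 scale. Over all 9 genes, 6 of 27 values did so. The same share over all genes was not computed, so this count has no background beside it. The trended biological CV also leaves out counting error. The median CV of the 9 genes was 6.71%, against 6.10% for genes in the same CPM range, and 5 of the 9 had a CV under the median of genes near their level.

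**Figure D2:**
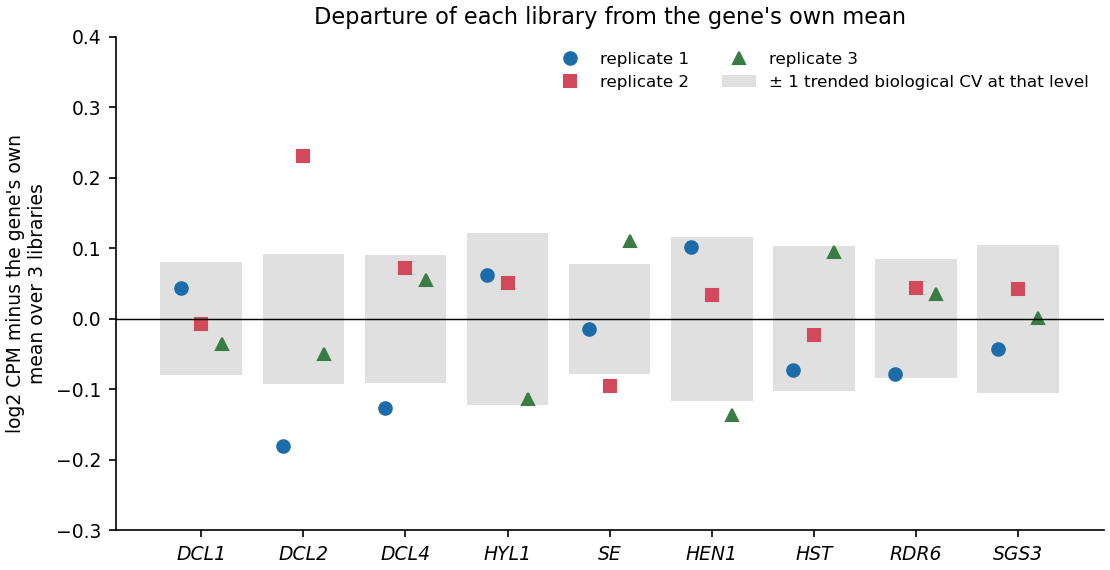
log2 CPM of each library minus the gene's own mean over 3 libraries, for the 9 genes; grey boxes span 1 trended biological CV on either side of 0 at the level of that gene. DCL2 lies at 0.23 in replicate 2 and at -0.18 in replicate 1, outside its box of 0.09 in both. The boxes leave out counting error.

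**Figure D3:**
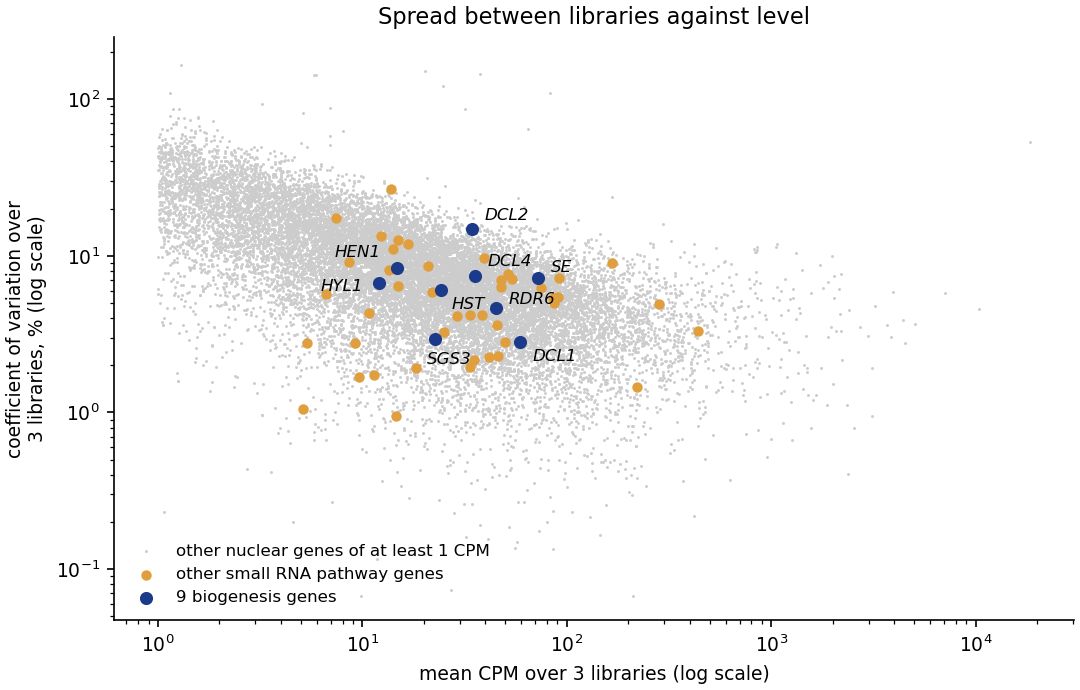
Coefficient of variation over 3 libraries against mean CPM (both log axes) for the 9 genes in blue, other small RNA pathway genes in orange and all other nuclear genes of at least 1 CPM in grey. DCL2 sits at the upper edge of the grey cloud for its level at 14.9%, and DCL1 and SGS3 lie in its lower part at 2.81% and 2.93%.

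The direction of the small differences was shared by some genes and not by others. DCL2, DCL4, RDR6, SGS3 and HST were lowest in replicate 1, 5 of 9 genes where 31.9% of all expressed genes were lowest in that library. DCL2, DCL4, RDR6 and SGS3 were also highest in replicate 2 (4 of 9, against 33.7% of expressed genes). DCL1, HYL1 and HEN1 were highest in replicate 1 (3 of 9, against 33.3%) and lowest in replicate 3 (3 of 9, against 34.9%). SE was lowest in replicate 2 (1 of 9, against 33.1%), and SE and HST were highest in replicate 3 (2 of 9, against 33%). These are counts over 3 replicate libraries of 1 condition, and they were not tested.

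Ratios between members do not depend on length when they are compared across libraries. Of the 36 pairs, HEN1 over HYL1 was the steadiest, with log2 ratios of 0.33, 0.27 and 0.26 in replicates 1, 2 and 3, a 1.04-fold range. SGS3 over RDR6, the pair that acts together on TAS transcripts, followed with log2 ratios of -0.95, -0.99 and -1.03, a 1.05-fold range. RDR6 over DCL4, successive steps of the tasiRNA pathway, ranged 1.05-fold (0.39, 0.31 and 0.32). At the other end SE over DCL2 had log2 ratios of 1.25, 0.76 and 1.24, a 1.41-fold range in which replicate 2 stood apart. The median range over the 36 pairs was 1.199-fold, 17 pairs ranged over 1.2-fold, and 7 of those 17 held DCL2, which is in 8 of the 36 pairs. Within each of HEN1, HYL1, SGS3 and RDR6 the counting intervals overlapped across libraries. Of the members, HYL1 and HEN1 had the fewest counts, so the steadiest pair was also the most open to counting error. The counting error of the ratios was not computed. The ranks of the pairs were not tested, and ranges of other gene pairs were not computed. A link between the steadiness of a pair and its role therefore cannot be read from these values.

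The Dicer family was also set out as shares of its summed CPM. DCL3 (AT3G43920), the family member that makes siRNAs for DNA methylation, had 13.8, 15.4 and 15.4 CPM in replicates 1, 2 and 3. Of the CPM summed over the 4 Dicer-like genes, DCL1 held 44.3%, 38.8% and 40.3% in replicates 1, 2 and 3 (mean 41.1 ± 2.87%, SD, n = 3). DCL2 held 21.8%, 26.3% and 23.0%, DCL4 23.8%, 24.7% and 25.9%, and DCL3 10.04%, 10.2% and 10.8%. The share of DCL2 was highest in replicate 2, where that of DCL1 was lowest. The shares of a library form 1 whole, so a higher share of 1 gene lowers the others. The CPM of DCL1 itself was lowest in replicate 3, at 57.6. The shares are of counts, not of transcripts, since length was not corrected.

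HYL1 belongs to a family of proteins with double-stranded RNA binding domains. Its relatives DRB2, DRB3, DRB4 (the partner of DCL4) and DRB5 were all expressed, at 51.7 ± 3.98, 18.3 ± 0.351, 14.9 ± 1.88 and 10.7 ± 0.463 CPM (SD, n = 3). HYL1 held 12.0%, 12.0% and 9.82% of the CPM of the 5 genes in replicates 1, 2 and 3 (mean 11.3 ± 1.24%, SD, n = 3), with replicate 3 the low library. DRB4 had 13.8, 13.8 and 17.1 CPM, with replicate 3 the high library. In the edgeR test against counting error, which 32.8% of all genes passed, DRB4 (adjusted p = 0.0244) and DRB2 (adjusted p = 0.00880) passed. Without replicate 3 neither passed (adjusted p = 0.996 and 0.846), and without replicate 1 DRB4 was at an adjusted p of 0.0515. Of the other RNA-dependent RNA polymerase genes, RDR1, known from antiviral defence, stood at 22.0 ± 1.29 CPM and RDR2, of the DNA methylation pathway, at 11.4 ± 0.198 CPM. Family members share conserved domains, so a part of the reads may not have been assigned to 1 member with certainty.

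The 9 genes were set beside 50 other genes of the small RNA pathway, in 7 groups, of which 44 were expressed. None of the 44 passed the edgeR test against genes of their level (lowest adjusted p = 0.476, TAS2), and 18 passed the test against counting error, with 3 of the 9 genes above and 32.8% of all genes beside them. Without replicate 1, 2 or 3 the count that passed was 8, 10 and 9, where 15.7%, 20.4% and 16.7% of all genes passed. On halved counts it was 5 (CDC5, RACK1A, THO2, TAS2 and ARF2), where 6.4% of all genes passed. CDC5 was the only one of the 18 that passed in all of these repeats.

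All 14 cofactors of nuclear microRNA processing were expressed. RACK1A, a scaffold protein, had 297, 274 and 272 CPM in replicates 1, 2 and 3, and CDC5, a MYB-related protein of a spliceosome-associated complex, had 165, 152 and 182 CPM. The cap-binding genes CBP20 and ABH1 (CBP80), which act with SE, stood at 33.7 ± 0.658 and 49.9 ± 1.40 CPM (SD, n = 3). SIC, a proline-rich protein, stood at 14.1 ± 1.56 CPM. Of the 14, 6 passed the edgeR test against counting error, which 32.8% of all genes passed, RACK1A with an adjusted p of 7.60e-07 that became 0.956 without replicate 1.

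All 5 genes of the Argonaute group were expressed. AGO1, the main effector of microRNAs, had 219, 224 and 218 CPM in replicates 1, 2 and 3, and AGO10, which sequesters a class of microRNAs in the shoot meristem, had 71.2, 72.9 and 79.9 CPM. AGO7, which loads miR390 and starts the TAS3 pathway, had 13.8, 12.2 and 14.3 CPM. SQN, a cyclophilin that assists AGO1, had 12.2, 14.1 and 10.8 CPM. AGO10 and SQN passed the edgeR test against counting error (adjusted p = 0.00799 and 0.0431), which 32.8% of all genes passed. AGO10 did not pass without replicate 1 or 3 (adjusted p = 0.0505 and 0.699), nor SQN without replicate 2 or 3 (adjusted p = 0.315 and 0.216).

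All 5 turnover genes were expressed as well. HESO1, which adds uridines to small RNAs that HEN1 has not methylated, had 14.7, 14.6 and 14.5 CPM in replicates 1, 2 and 3, a CV of 0.948%. URT1, another such enzyme, stood at 86.7 ± 4.31 CPM (SD, n = 3), and the nuclease genes SDN1, SDN2 and SDN3 at 5.12 ± 0.0535, 20.9 ± 1.79 and 47.5 ± 3.34 CPM. URT1 and SDN3 passed the edgeR test against counting error, which 32.8% of all genes passed. Neither gene passed it without replicate 1 or 2 (adjusted p from 0.0866 to 0.717). In the group of SDE5 and THO/TREX genes, which act in tasiRNA production, SDE5 stood at 5.37 ± 0.149 CPM, TEX1 at 16.7 ± 1.995 CPM, HPR1 at 33.4 ± 1.40 CPM and THO2 at 91.7 ± 6.63 CPM, and 2 of these 4 genes (TEX1 and THO2) passed that test. TEX1 lost its call without replicate 3 (adjusted p = 0.886) and THO2 without replicate 1 (adjusted p = 0.180).

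Of the TAS and MIR transcripts on which the machinery acts, 6 of 12 were expressed, where 56.8% of all nuclear genes and 6.69% of those not listed as protein-coding were. TAS3, the precursor of the tasiRNAs that target ARF genes, had 9.70, 9.51 and 9.84 CPM in replicates 1, 2 and 3. TAS1A, TAS1B and TAS1C stood at 9.17 ± 0.256, 8.60 ± 0.782 and 6.64 ± 0.380 CPM (SD, n = 3) and are similar in sequence, so reads may be divided wrongly among them. TAS2 varied most among the expressed genes of all 7 groups, with 12.8, 17.9 and 10.8 CPM and a CV of 26.5%, and passed the edgeR test against counting error (adjusted p = 3.04e-07; 0.144 without replicate 2). TAS2 and TAS1A were highest in replicate 2, TAS1B and TAS3 in replicate 3, and TAS1C in replicate 1.

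MIR162A, which encodes a microRNA that targets DCL1 itself, had 7.11, 8.93 and 6.38 CPM in replicates 1, 2 and 3, from 220, 167 and 131 counts. Its value was highest in replicate 2 and it passed the edgeR test against counting error (adjusted p = 0.0390), whereas DCL1 did not (adjusted p = 0.429); whether the 2 genes differ in spread was not tested. Without replicate 2 or 3 MIR162A did not pass (adjusted p = 0.527 and 0.112). MIR168A, the precursor of the microRNA that targets AGO1, had 4, 8 and 6 counts, MIR168B 0, 0 and 2 counts, and MIR390A 2, 0 and 0 counts. MIR162B, MIR173 and MIR390B had no count in any library. If each count is 1 fragment, this allows up to 3 counts, or 0.0969, 0.162 and 0.144 CPM in replicates 1, 2 and 3. The limit is higher if fragments were counted more than 1 time. A low count of a MIR gene is a level of the precursor transcript as counted here and says nothing of the mature microRNA.

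The ARF genes cut by TAS3 tasiRNAs were all 3 expressed, ARF2 at 439 ± 14.6 CPM, ARF3 (ETT in the gene table) at 41.9 ± 0.947 CPM and ARF4 at 54.0 ± 3.85 CPM (SD, n = 3). ARF2 had 424, 439 and 453 CPM and ARF4 had 58.1, 53.2 and 50.6 CPM in replicates 1, 2 and 3. Both passed the edgeR test against counting error, which 32.8% of all genes passed. Neither did without replicate 1 (adjusted p = 0.103 and 0.524) or replicate 3 (adjusted p = 0.0548 and 0.0996). ARF3, with 40.9, 42.8 and 41.8 CPM, did not (adjusted p = 0.697).

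**Figure D4:**
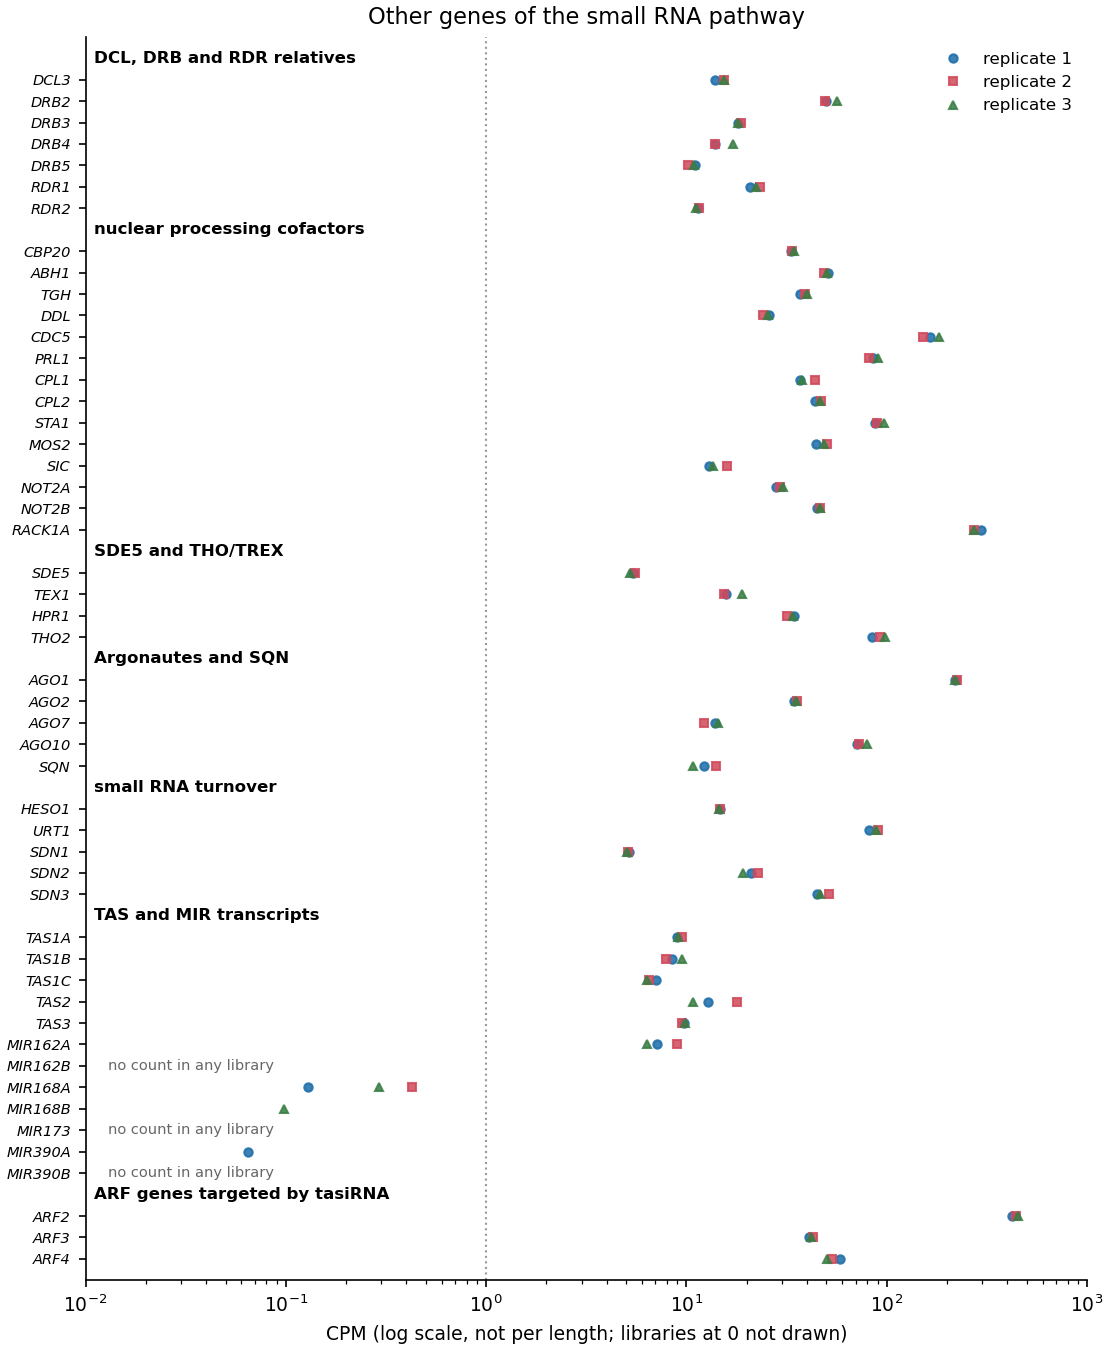
CPM (log axis, not per length) of 50 other genes of the small RNA pathway in replicates 1, 2 and 3, grouped by role; the dotted line marks 1 CPM and values of 0 are not drawn. The 6 genes left of the line or without a count are all MIR genes, and every gene outside the TAS and MIR group stands above 5 CPM in each library.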

How the data were processed

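The authors deposited a table of raw counts of 33602 genes in 3 RNA libraries. The submitters' processing notes name featureCounts, HISAT2, cutadapt, SAMtools 1.13, Bowtie2 2.4.5 and deepTools 3.5.1, without their roles, and the TAIR10 build. The labels' protocols give a stranded kit; the sources used here do not give strand setting, pair handling or multi-mapping. Of counts from 1 to 19, even numbers made up 86.2% (replicate 1), 85.6% (replicate 2) and 84.5% (replicate 3), and of counts of 1000 and up 50.3%, 51.1% and 49.9%. Counts were not shown to be single fragments, so counting intervals cover counting error only and may be too narrow. Names came from a RefSeq gene table (TAIR10.1; 32835 identifiers matched).

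CPM used TMM scaling over 33323 nuclear genes (edgeR 4.0.16, R 4.3.3). Spread was tested by goodness of fit in edgeR (deviance of a model with an intercept alone, 2 degrees of freedom), at dispersion 0 and at the trended dispersion, with Benjamini-Hochberg adjustment over 18915 genes of at least 1 CPM and a threshold of 0.05. That trend comes from the tested genes themselves. The test at the trended dispersion was tried on simulated data, and the test at dispersion 0 was not. The simulated counts did not carry the excess of even low counts. Alternatives used DESeq2 1.42.0 size factors, library totals, no filter, halved counts and each replicate left out.

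The members and lists were chosen with earlier results of these data known. All 9 members and all pathway genes whose name the gene table holds were eligible to be named; 1 of 51 (AT3G06670) had no name there and was left out. Levels per coding length, the order of members by level and sign-flip tests between neighbours were planned, but lengths for the TAIR10 build were not used; CPM and shares of CPM stand in their place. No genes were named for a like pattern, since 3 replicates of 1 condition have none. The 1.2-fold window for genes near a level was chosen after the values were seen.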

Additional observations from a re-analysis of the deposited data

How the results depend on the processing

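The count of expressed members (9), the count of members that varied beyond genes of their level (0) and the count of expressed pathway genes (44) were the same under every alternative run on them. The test against genes of their level passed only 0.0317% to 0.153% of all genes across the settings. A repeated 0 among 9 members is therefore little evidence of stability. The 3 members beyond counting error remained 3 with DESeq2 size factors, with library totals and with no filter on low counts. With halved counts only 1 (DCL2) was left, where 6.4% of all genes passed, and with each replicate left out 2 were left in each case, on fewer libraries, where 15.7% to 20.4% of all genes passed against 32.8% with all 3. The pathway genes beyond counting error numbered 18, 5 with halved counts and 8 to 10 with each replicate left out, alternatives chosen after seeing the data. Leaving out each replicate gave a DCL1 share of 39.5% to 42.3%, a HYL1 share of 10.9% to 11.97% and a log2 CPM difference of SGS3 minus RDR6 of -1.01 to -0.97. No paired analysis was possible because the RNA libraries form 1 group. Levels per coding length and the order of members were not run, since no lengths were used. Among the 9 members depth limits HYL1 most, with 229 to 390 counts, and among the other genes the MIR genes near 0.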
